A study of Mus musculus with 3 samples.

Results

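The far telomeric part of chromosome 7 comprised all listed DpnII fragments whose midpoint lay above position 120976215 (mm9), more than 10 Mb from the centre of the Hbb viewpoint, on the side of the locus control region (LCR). It held 13956 of the 48123 fragments in the table (29.0%) and reached to 152521585, the last listed base, 41.5 Mb from the viewpoint. Among listed fragments the members were chosen by position alone, but a fragment with reads is listed, so membership is not independent of the reads. Contacts of the beta-globin gene were measured by next-generation Capture-C in erythroid cells grown from mouse fetal livers of mixed strain, taken at E12.5. The cells were expanded for 6 days with erythropoietin, stem cell factor and dexamethasone, selected for CD117, and moved to differentiation medium, with a harvest after 24 h. All 3 samples carried the homozygous combined deletion of HS2 and HS3 and were labelled late erythroid. No library without the deletion was analysed here, so every comparison is between positions of 1 contact profile. The labels' protocol says that cells of individual fetal livers were grown, without tying a liver to a sample, so the spread between samples may in part be technical. A contact assay gives no RNA levels, so the cell type could not be checked against its markers.

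Capture-C reads ligation between a chosen viewpoint and any other restriction fragment, and a fragment that is often near the viewpoint in the nucleus gives more reads. Chromosomes are known to fold into alternating segments, many kilobases to megabases long, of active, gene-rich and of silent, gene-poor chromatin, and segments of the same kind tend to meet even over long distances. In erythroid nuclei the active globin genes are known to be found near other transcribed genes of chromosome 7. HS2 and HS3 are DNase-hypersensitive enhancer elements of the LCR, which drives beta-globin transcription. In the GRCm38 gene order the chromosome beyond the embryonic globin gene Hbb-y carries Fgfr2, a growth factor receptor gene, Uros, which encodes an enzyme of haem synthesis, Mki67, a proliferation marker gene, and Hras. After these come the imprinted genes H19, Igf2, Kcnq1 and Kcnq1ot1, and Tpcn2, Mrgprf and Mrgprd lie close to the end. GRCm38 coordinates cannot be set beside mm9, so no bin below is assigned a gene and no sequence is shown.

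The 3 count columns of the table had no names of their own and are called by their order in the table. They held 49433, 49247 and 37382 cis reads, that is, reads on the chromosome of the viewpoint. The first column had 6962 reads on the far telomeric fragments, or 14.1% of its cis reads (95% exact binomial interval 13.8 to 14.4). The second column had 8010, or 16.3% (15.9 to 16.6), and the third had 5401, or 14.4% (14.1 to 14.8). The mean share was 14.9% ± 1.17 (SD, n = 3), with the second column above the intervals of both others. These intervals cover counting error only, and a count of 0 allows up to 0.00607%, 0.00609% and 0.00803% of the reads of the 3 columns. The much longer centromeric part beyond 10 Mb, 15066 fragments over 97.9 Mb, held 14.1% ± 0.89 of the cis reads.

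Single fragments were sparsely covered. Of the 13956 fragments, 3350 (24.0%) had no read in any column, 8904 had reads in 1 column, 1380 in 2 columns and 322 (2.31%) in all 3. Fragments with 1 read in total numbered 5236, those with 2 reads 3565, and 78 fragments had 10 or more. The listed fragments covered 23.0% of the sequence, against 39.3% at 5 to 10 Mb on the same side. How fragments came to be listed was not stated in the sources used here. Values below are sums over bins of 100 kb or 1 Mb, counted from the viewpoint outward, with each fragment placed by its midpoint. A density is the number of reads per kb of sequence per 100000 cis reads of the same column, where unlisted sequence counts as having no reads.

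Reads continued to the end of the chromosome and their density did not fall evenly. Only cis reads were used, so contacts were not told apart from background. The density was 1.02 ± 0.051 (SD, n = 3) at 5 to 10 Mb and 0.645 ± 0.055 at 10 to 15 Mb. It was higher again at 15 to 20 Mb, with 0.717, 0.839 and 0.732 in the 3 columns, 1.17-fold to 1.19-fold the density of the zone before it. It then was 0.578 ± 0.053 at 20 to 25 Mb, 0.386 ± 0.051 at 25 to 30 Mb and 0.198 ± 0.0051 at 30 to 35 Mb. The last zone, 35 to 41.5 Mb, had 0.293, 0.333 and 0.327 in the columns, 1.45-fold to 1.73-fold the zone before it. Both increases were seen in 3 of 3 columns, and the values of neighbouring zones did not overlap. For each of them a two-sided exact permutation test by sign flips returned p = 0.25, the smallest that 3 columns allow. Over the 32 bins of 1 Mb, the log2 density fell by 0.62 ± 0.069 per 10 Mb (exact sign-flip permutation p = 0.25, two-sided). Per listed fragment the log2 fall was only 0.15 ± 0.069 per 10 Mb. The increase in the last zone was not seen per listed fragment: reads per listed fragment were 1.38 at 30 to 35 Mb and 1.22 at 35 to 41.5 Mb, while the listed part of the sequence went from 10.1% to 17.8%. From 10 to 15 Mb to 15 to 20 Mb, reads per listed fragment went from 1.61 to 1.71.

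**Figure D1:**
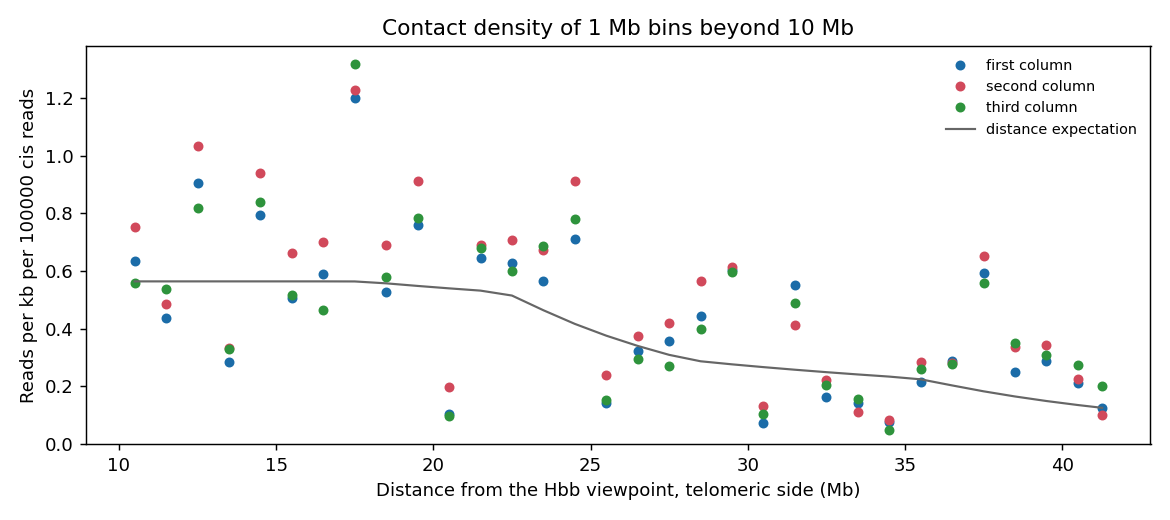
Reads per kb per 100000 cis reads (y axis) in 1 Mb bins against distance from the viewpoint on the telomeric side (x axis); points are the 3 columns and the line is the density expected at that distance from both sides of the viewpoint. The bin at 17 to 18 Mb is the highest in every column (mean 1.25), and the bin at 34 to 35 Mb is the lowest of the complete bins by mean (0.070).

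The profile varied widely between megabases. The density of the 31 complete 1 Mb bins ran from 0.070 to 1.25 with a median of 0.485, a 17.8-fold range. Each bin was set against the reads expected at its distance, taken from a monotone curve through both sides of the viewpoint, by edgeR's quasi-likelihood test with Benjamini-Hochberg adjustment over all bins of the chromosome. Of 32 bins, 17 were above and 8 below expectation at an adjusted p under 0.05. Over all 141 bins tested on chromosome 7, 36.9% were called above and 40.4% below, against 53.1% above among the telomeric bins and fewer below. Their median log2 ratio of observed to expected reads was 0.27, against -0.04 over all bins. That lean depended on the expectation: with a curve from the telomeric side alone, 13 were above and 11 below, where each side's own curve put 36.9% and 41.8% of all bins there. Against a flat expectation, the mean of all sequence beyond 10 Mb on both sides, 23 were above and 6 below, with 29.8% and 58.2% over all bins.

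The 5 bins with the highest ratio lay at 37, 17, 29, 39 and 24 Mb. The highest, at 37 to 38 Mb (chr7:147976216-148976215), had densities of 0.593, 0.652 and 0.559 in the 3 columns. That was 3.28 ± 0.26 times the expected reads (edgeR adjusted p = 4.5e-53), and 2.15 times with the curve of the telomeric side. The bin at 17 to 18 Mb (chr7:127976216-128976215) had 593, 605 and 492 reads, a density of 1.25 ± 0.061, the highest of the 32 bins in each column. Its ratio was 2.21 ± 0.11 (edgeR adjusted p = 8.1e-42). The bin at 29 to 30 Mb (chr7:139976216-140976215) had nearly equal values of 0.603, 0.613 and 0.597, at 2.18 ± 0.030 times expectation. The bin at 39 to 40 Mb (chr7:149976216-150976215) reached 2.09 ± 0.19 times from a lower density of 0.313 ± 0.028. With the curve of the telomeric side it was at 1.23 times, still past the threshold (edgeR adjusted p = 0.020). The bin at 24 to 25 Mb (chr7:134976216-135976215) had 0.710, 0.912 and 0.778, or 1.92 ± 0.25 times expectation. All 5 were above expectation in every column, which was a condition of their choice. Counted per listed fragment, only the bin at 17 to 18 Mb stayed above. The bin at 37 to 38 Mb was then at 0.99 ± 0.078 (edgeR adjusted p = 0.98). That at 29 to 30 Mb was at 1.14 ± 0.016 (edgeR adjusted p = 0.17). The bin at 39 to 40 Mb was at 1.12 ± 0.10 (edgeR adjusted p = 0.49). That at 24 to 25 Mb was at 1.05 ± 0.13 (edgeR adjusted p = 0.79).

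The 5 lowest bins were likewise chosen among called bins that lay below expectation in every column. The bin at 20 to 21 Mb (chr7:130976216-131976215) had 51, 97 and 37 reads in the 3 columns and 0.25 ± 0.10 times the expected reads (edgeR adjusted p = 3.9e-22). It adjoins a bin at 19 to 20 Mb with 376, 449 and 293 reads and one at 21 to 22 Mb with 319, 339 and 254, so the change came within neighbouring megabases in each column. The bin at 34 to 35 Mb (chr7:144976216-145976215) had 38, 42 and 18 reads and a ratio of 0.30 ± 0.083. The bin at 30 to 31 Mb (chr7:140976216-141976215) had 36, 65 and 39 reads and 0.39 ± 0.11 times the expected reads. It lay between the bin at 29 to 30 Mb described above and one at 31 to 32 Mb with a ratio of 1.88 ± 0.27. The bins at 25 to 26 Mb (chr7:135976216-136976215) and 13 to 14 Mb (chr7:123976216-124976215) were at 0.47 ± 0.14 and 0.56 ± 0.047. The density of the bin at 13 to 14 Mb, 0.316, was also below the median of the complete bins, 0.485. It was below its neighbours at 12 to 13 Mb, with 0.918, and at 14 to 15 Mb, with 0.857. Against the flat expectation, which does not change with distance, the bin at 13 to 14 Mb was above, at 1.40 times. Counted per listed fragment, 4 of these 5 bins did not pass the threshold. The ratio was then 0.81 ± 0.34 at 20 to 21 Mb (edgeR adjusted p = 0.33), 0.83 ± 0.23 at 34 to 35 Mb (edgeR adjusted p = 0.62), 0.79 ± 0.23 at 30 to 31 Mb (edgeR adjusted p = 0.30) and 0.85 ± 0.26 at 25 to 26 Mb (edgeR adjusted p = 0.46). The bin at 13 to 14 Mb stayed below, at 0.74 ± 0.062 (edgeR adjusted p = 0.0057).

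The finer bins placed the borders. Of 316 bins of 100 kb, 300 had at least 10 reads and were tested; the other 16, poorer by construction, were not. Of those tested, 90 were above and 113 below the distance expectation (edgeR adjusted p under 0.05), or 30.0% and 37.7%. Over all 931 tested bins of the chromosome the shares were 28.4% and 40.4%, close to those of the telomeric bins. The counts depended on the columns for the poor bins: without the first, the second or the third column, 57, 52 and 38 were called below. Neighbouring 100 kb bins resembled each other, with a Pearson correlation of their log2 ratios of 0.60 over 288 adjacent pairs that share libraries, while at 1 Mb it was -0.02 over 31 pairs.

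**Figure D2:**
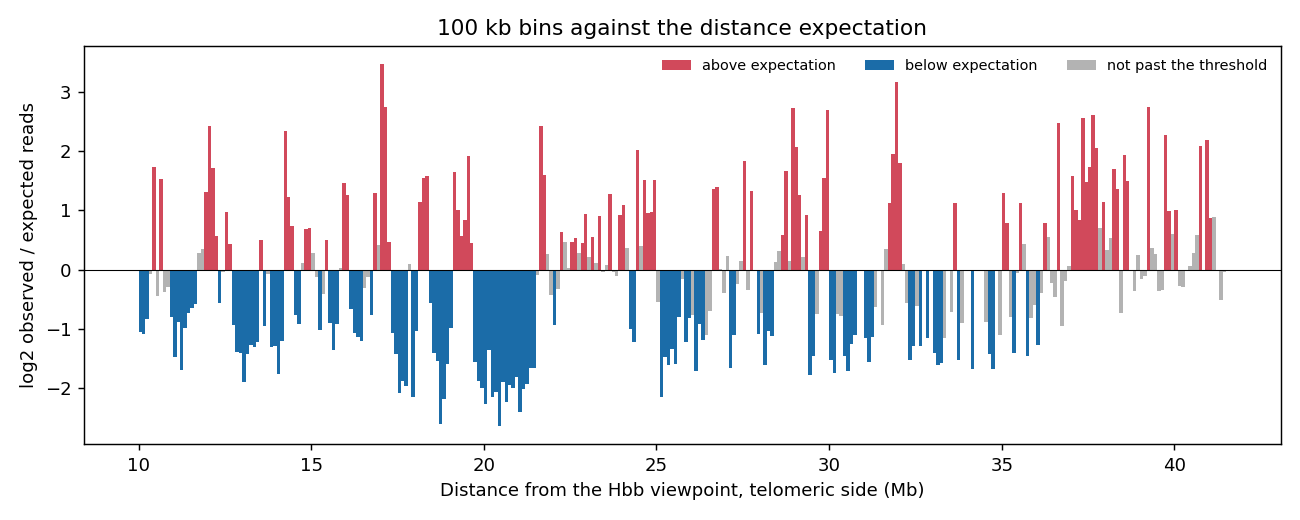
log2 ratio of observed to expected reads (y axis) of the 300 tested 100 kb bins against distance from the viewpoint (x axis), coloured by the edgeR call. Called bins lie in blocks or singly. The longest block below expectation spans 18 bins at 19.7 to 21.5 Mb and the longest above spans 8 bins at 37.0 to 37.8 Mb.

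The 90 bins above expectation formed 45 runs of adjacent bins, of which 10 had 3 bins or more and 21 were single bins. The 113 below formed 37 runs, of which 15 had 3 bins or more and 13 were single bins. The longest rich run was 8 bins at 37.0 to 37.8 Mb (chr7:147976216-148776215), with 255, 295 and 182 reads and 3.60 ± 0.39 times the expected reads. The next, 6 bins at 19.1 to 19.7 Mb (chr7:130076216-130676215), had 341, 415 and 261 reads, a density of 1.24 ± 0.14 and a ratio of 2.26 ± 0.26. It was bordered on both sides by poor runs. On the viewpoint side, 7 bins at 18.4 to 19.1 Mb had 0.37 ± 0.011 times the expected reads. On the far side began the longest poor run, 18 bins at 19.7 to 21.5 Mb (chr7:130676216-132476215), with 104, 157 and 84 reads and a ratio of 0.26 ± 0.061. Density dropped from 1.24 ± 0.14 to 0.140 ± 0.033 across that border, and the listed part of the sequence from 50.4% to 8.6%. The border was itself set by the calls, so the drop is described and not tested.

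3 rich runs had 4 bins each and completed the 5 longest. The one at 11.9 to 12.3 Mb (chr7:122876216-123276215) had 344, 381 and 246 reads and 3.14 ± 0.26 times the expected reads. The one at 31.7 to 32.1 Mb (chr7:142676216-143076215) had 252, 207 and 181 reads and the highest ratio of the 5, 4.63 ± 0.45. The one that began at 24.6 Mb (chr7:135576216-135976215) had 195, 208 and 128 reads and 2.39 ± 0.25 times. The other long poor runs had 8 bins at 10.9 to 11.7 Mb (ratio 0.53 ± 0.024), 8 at 12.7 to 13.5 Mb (0.39 ± 0.062) and 6 at 25.1 to 25.7 Mb (0.37 ± 0.12). The rich run at 11.9 to 12.3 Mb thus lay between the first pair of these. The runs were delimited by their own calls, so their ratios are described and not tested. Per listed fragment, the ratio of the longest rich run, from 37 Mb on, was 0.99 ± 0.11, and that of the run from 24.6 Mb on was 1.07 ± 0.11, with none of their bins called by edgeR's test. The rich run at 31.7 to 32.1 Mb kept the highest ratio of the 5, 1.53 ± 0.15, with 1 bin called. The run at 11.9 to 12.3 Mb was at 1.33 ± 0.11 with 1 bin called, and that at 19.1 to 19.7 Mb at 1.16 ± 0.13 with 2 bins called. The 5 longest poor runs had ratios of 0.65 to 0.85 per listed fragment, and none of their bins was called.

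The richest stretch of the far telomeric sequence was short. The 100 kb bin that ended at 17.1 Mb (chr7:127976216-128076215) had 325, 300 and 228 reads and a density of 6.26 ± 0.28. Among the 1296 bins of 100 kb beyond 10 Mb on both sides it had the highest density. It held 11.1 ± 0.49 times the reads expected at its distance (edgeR adjusted p = 3.7e-16). The adjoining bin at 17.1 to 17.2 Mb had 172, 164 and 172 reads, with a ratio of 6.74 ± 1.23 (edgeR adjusted p = 4.5e-13). The bin before them, from 16.9 Mb on, had 33, 53 and 18 reads and did not pass the threshold (ratio 1.32 ± 0.54, edgeR adjusted p = 0.083). Beyond 17.3 Mb, 5 bins in a row were below expectation, with 43, 49 and 32 reads over 500 kb.

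Windows of 10 kb split this stretch further. The 5 richest of the 100 windows held 790 of the 1690 reads of the megabase (46.7%), where the median window had 4 reads and 13 windows had none. The richest, chr7:128116216-128126215, had 73, 74 and 61 reads, and 14 of its 19 listed fragments had reads in all 3 columns. The other rich group was the 40 kb at chr7:127986216-128026215, whose 4 windows had 177, 132, 153 and 120 reads. Between both groups a window at 128066216 to 128076215 had only 15 reads. The first 200 kb of the megabase held 80.5% of its reads on 369 listed fragments, 3.69 reads per fragment. The remaining 800 kb had 281 listed fragments and 1.17 reads per fragment. Of the 322 far telomeric fragments with reads in all 3 columns, 69 lay in this megabase, all in its first 200 kb. These windows were examined after the reads of the bin were seen and are described without a test.

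**Figure D3:**
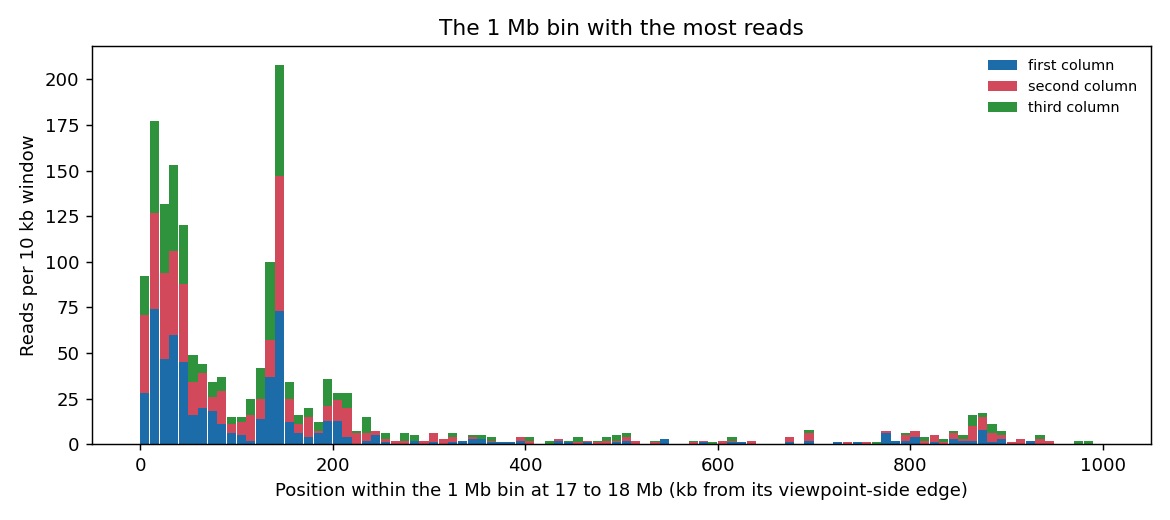
Reads per 10 kb window (y axis, columns stacked) along the 1 Mb bin at 17 to 18 Mb, in kb from its edge nearer to the viewpoint (x axis). Reads of all 3 columns sit in a broad group at 10 to 50 kb and a narrow one at 130 to 150 kb, with few reads beyond 220 kb.

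The far telomeric sequence was also compared, per kb of sequence, with the centromeric side at the same distances, 10 to 41.5 Mb. The telomeric side had a density of 0.446, 0.516 and 0.458 in the 3 columns, and the centromeric side 0.320, 0.352 and 0.316. The telomeric side was thus 1.39-fold, 1.47-fold and 1.45-fold higher (log2 ratio 0.52 ± 0.038, n = 3, exact sign-flip permutation p = 0.25, two-sided). The fold was 1.44 ± 0.082 at 10 to 20 Mb, 1.37 ± 0.0044 at 20 to 30 Mb and 1.55 ± 0.011 from 30 Mb on. Megabase by megabase the sides crossed. Of 31 matched steps, the telomeric bin was higher in all 3 columns in 21, lower in all 3 in 6, and mixed in 4. The largest difference in its favour of the 31 was at 17 to 18 Mb, with 1.25 ± 0.061 against 0.133 ± 0.0064, and at 13 to 14 Mb it was the poorer side, with 0.316 ± 0.027 against 1.54 ± 0.16.

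**Figure D4:**
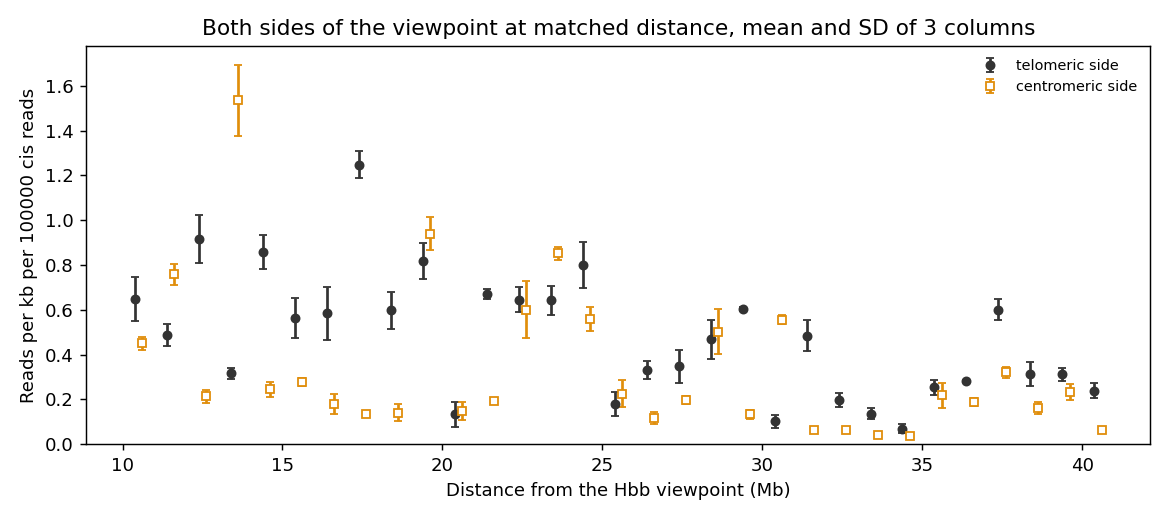
Density in reads per kb per 100000 cis reads (y axis) of 1 Mb bins on the telomeric side (filled circles) and the centromeric side (open squares) at the same distance from the viewpoint (x axis); symbols are means and bars the SD of 3 columns. Both sides hold rich and poor bins, and the telomeric bin is higher in every column at 21 of 31 distances.

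The number of listed fragments varied more between bins than the reads per listed fragment. Over the complete 1 Mb bins, listed fragments ranged from 92 to 782, an 8.50-fold range, and reads per listed fragment from 1.03 to 2.60, a 2.53-fold range. Reads and listed fragments had a Spearman correlation of 0.93 over 32 bins. That correlation and the narrower range of reads per listed fragment are partly built in, since a fragment with reads is listed. Listed fragments without any read in these 3 columns followed the same order, with a Spearman correlation with reads of 0.84 over the 32 bins and between 23 and 268 such fragments in a complete bin. At 100 kb, the columns correlated at 0.82 to 0.84 (Spearman, 316 bins) in reads and at 0.03 to 0.09 in reads per listed fragment. At 1 Mb they correlated at 0.94 to 0.97 (32 bins) in reads and at 0.30, 0.61 and 0.69 in reads per listed fragment. The part that contact frequency and the listing of fragments each have in the densities cannot be told apart here.

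With the expectation counted per listed fragment, 4 of the 32 bins of 1 Mb were above and 3 below (edgeR adjusted p under 0.05), where 7.8% and 12.8% of all 141 bins were. Of the 17 bins above expectation per kb of sequence, 4 were also above per listed fragment, 12 did not pass and 1, at 23 to 24 Mb, was below with a ratio of 0.84 ± 0.087. Of the 8 bins below expectation per kb, 1, at 13 to 14 Mb, was also below per listed fragment and 7 did not pass. The other bins below were at 23 to 24 Mb and at 15 to 16 Mb, where the ratio per kb was 1.00 ± 0.16. The bin at 17 to 18 Mb was among the 4, with 1.59 ± 0.077 times the expected reads (edgeR adjusted p = 3.2e-16), and so was the bin at 31 to 32 Mb with 1.37 ± 0.20 (edgeR adjusted p = 1.2e-04). The other pair were the bins at 21 to 22 Mb, with 1.22 ± 0.041, and at 36 to 37 Mb, with 1.32 ± 0.028. The bin at 37 to 38 Mb, the highest per kb, was at 0.99 ± 0.078 per listed fragment. At 100 kb, 13 of 300 bins were above per listed fragment, where 4.94% of all 931 were, and all 13 were also above per kb. The pair of bins from 17 to 17.2 Mb stood at 2.45 ± 0.11 and 2.01 ± 0.37. No 100 kb bin of the telomeric side was below by edgeR's test, and neither was any of the 430 centromeric bins tested beyond 10 Mb. Over all 931 bins, 1.93% were below. Of the telomeric bins, 16 had an unadjusted p under 0.05, and per listed kb 1 was below. The advantage of the telomeric side was 1.01 ± 0.027-fold per listed fragment, with 13956 listed fragments against 9829 at matched distance. It was 0.97 ± 0.055-fold at 10 to 20 Mb, 1.05 ± 0.0034-fold at 20 to 30 Mb and 1.02 ± 0.0075-fold from 30 Mb on. Megabase by megabase, with the reads of the 3 columns summed, the telomeric bin had more reads per listed fragment in 22 of the 31 steps.

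**Figure D5:**
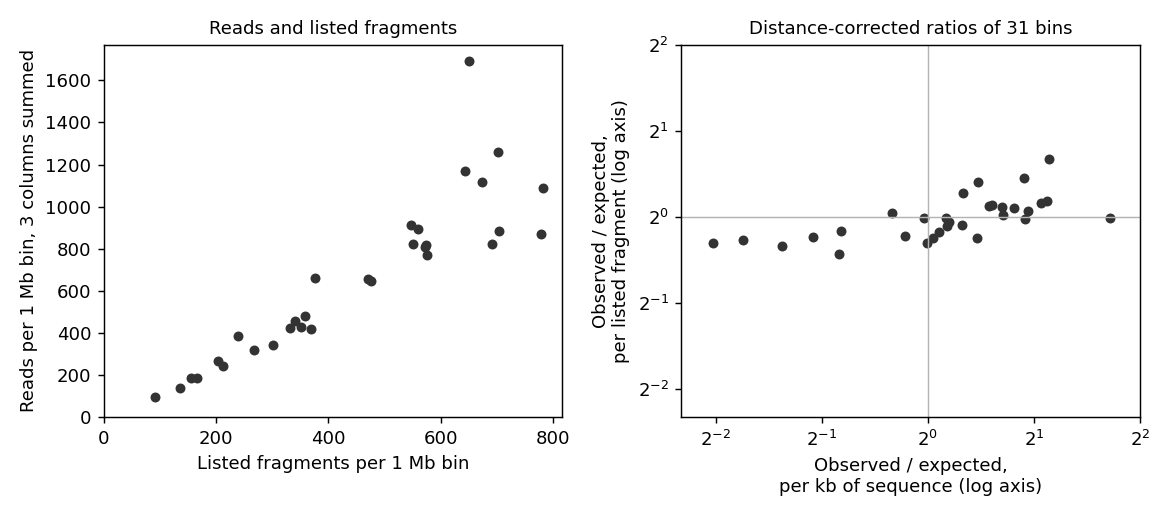
Left, reads per 1 Mb bin summed over 3 columns (y axis) against listed fragments (x axis) for the 31 complete bins; right, the ratio of observed to expected reads per listed fragment (y axis) against that per kb of sequence (x axis), both on log axes. Ratios per kb run from 0.25 to 3.28 while those per listed fragment run from 0.74 to 1.59, and the bin with the most reads (1690) lies above the other bins of similar listing.

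Among single fragments 1 stood far apart. The 148 bp fragment chr7:147659332-147659479, 36.7 Mb from the viewpoint, had 62, 41 and 39 reads, 0.697% of all reads of the far telomeric sequence. It had no adjoining listed fragment, and the only other listed fragment within 10 kb had 2 reads. It made up 36.9% of the reads of its 1 Mb bin. Without it that bin went from 1.39 ± 0.029 to 0.90 ± 0.085 times the expected reads and was no longer above expectation (edgeR adjusted p = 0.38). Per listed fragment it went from 1.32 ± 0.028 to 0.86 ± 0.081 (edgeR adjusted p = 0.47), so both calls of that bin rest on this fragment. The bins at 11 to 12 Mb and 32 to 33 Mb also stopped being called below without it, at edgeR adjusted p = 0.051 and 0.055. The next 4 fragments all lay in the rich stretch at 17 Mb and differed from it in their surroundings. They were chr7:128124497-128125340 with 7, 9 and 8 reads, chr7:128123689-128124195 with 9, 7 and 7, chr7:127988044-127988704 with 8, 6 and 7, and chr7:128121725-128122256 with 9, 10 and 2. Each of these 4 had a listed fragment adjoining it on both sides, and the 37 to 55 other listed fragments within 10 kb held 237 to 274 reads.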

How the data were processed

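The authors deposited raw counts of reads per listed DpnII fragment of chromosome 7 for the Hbb profile. The submitters' processing notes name Trim Galore, Bowtie2 and mm9; the counting of junctions and the choice of listed fragments were not stated in the sources used here. The members and bins were chosen with earlier results of these data known. Fragments were assigned to bins by midpoint. Expected reads came from an isotonic curve (scikit-learn 1.9.0) through 10 distance bins per decade over both sides, scaled by kb of sequence and the cis reads of each column; the uncertainty of the curve itself did not enter the tests. Bins with at least 10 reads were tested with edgeR 4.0.16 (R 4.3.3) by the quasi-likelihood F-test of a ratio of 1, computed from the deviances of glmQLFit because glmQLFTest refuses a design of 1 column, over all bins of the chromosome. On simulated counts, 100% of 3-fold, 77.2% of 2-fold and 45.9% of 1.5-fold changes of 100 kb bins were recovered, and 0.615% of the unchanged bins were called, of 829 bins in all. At 1 Mb, 100% of 3-fold and 2-fold and 75% of 1.5-fold changes were recovered, and 4.26% of the unchanged bins were called, of 141 in all. The simulation took the expected reads as known and used the same dispersion at both bin widths. In the data the fitted common dispersion was 0.0265 at 100 kb and 0.0118 at 1 Mb. A smaller part of the bins was changed than was called in the data, so these rates need not hold for the calls above. Named were the 5 highest and 5 lowest called 1 Mb bins on 1 side of expectation in every column, the 5 longest runs of called 100 kb bins in each direction and the 5 fragments with the most reads. Alternatives used DESeq2 1.42.0 and other exposures. The 100 kb and 10 kb bins near 17 Mb and the bins named per listed fragment were chosen after their values were seen. Between columns, chi-square per degree of freedom was 1.90 over 178 bins of 100 kb with at least 30 reads.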

Additional observations from a re-analysis of the deposited data

How the results depend on the processing

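Alternatives without the fragment with the most reads, alone or per listed fragment, with the curve of the same side and from 30 Mb on were chosen after seeing the data. Scaling by TMM, DESeq2 size factors or reads beyond 10 Mb, capping fragments at 10 reads and shifting bins by 50 kb kept the counts of calls they gave within 1.5 times. The exposure changed most: per listed fragment, 4 bins of 1 Mb were above and 3 below, and 13 and 0 of 100 kb; per listed kb, 4 and 2, and 15 and 1; per listed fragment without the fragment with the most reads, 3 and 3, and 12 and 0. Bins of 200 kb gave 57 above and 69 below, fewer by construction. Below expectation at 100 kb, the DESeq2 Wald test called 58 and a flat expectation 9. Leaving out 1 column gave 61 to 83 above and 38 to 57 below at 100 kb, and 16 to 17 and 6 to 7 at 1 Mb. Without the first, the second or the third column, 266, 253 and 280 bins of 100 kb had enough reads to be tested. At 1 Mb all 32 were tested each time. The cause of the changed counts was not tested. The ratio of the bin at 13 to 14 Mb turned to 1.40 with the flat expectation, and that of the bin at 37 to 38 Mb to 0.995 per listed fragment; the cause was not tested. The share of cis reads was 21.6% with capped fragments, 16.8% of reads beyond 5 kb and 28.0% of reads beyond 1 Mb, and 14.3% to 15.4% without 1 column. Without 1 column the log2 side ratio was 0.51 to 0.54 and the slope -0.65 to -0.58. No paired analysis was possible because there is 1 group. Depth limits single fragments: most had 2 reads or fewer.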
